A study of Drosophila melanogaster with 6 samples.

Results

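The Notch receptor gene N, its DNA-binding effector gene Su(H) and 8 genes of the Enhancer of split complex, E(spl), were followed in Drosophila S2 cells with and without the linker histone dBigH1. The genes were taken by symbol, in a list drawn up with earlier results of these data known, and a probe set counted only if the array annotation gave it to that symbol alone. By this rule 6 of the 10 genes had a probe set, 1 each, out of 11982 genes named on the array. They were the bHLH repressor genes E(spl)mdelta-HLH, E(spl)mbeta-HLH, E(spl)m3-HLH, E(spl)m5-HLH and E(spl)m7-HLH, and the Bearded family gene E(spl)malpha-BFM. N, Su(H), E(spl)mgamma-HLH and E(spl)m8-HLH had no probe set named to them in the annotation used and were not analysed here. The values below therefore describe the E(spl) side of the pathway, and neither the receptor nor its DNA-binding partner.

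Notch is a receptor that is cut when it binds a ligand on a neighbouring cell. Its freed intracellular part enters the nucleus, joins Su(H) and the coactivator Mastermind, and turns on genes that Su(H) otherwise holds down together with Hairless and Groucho. The E(spl) complex is the best known group of such targets in flies. Many of its genes encode bHLH repressors that recruit Groucho and keep cells from neural and other fates, and others encode small Bearded family proteins that restrain the ubiquitin ligase Neuralized. In fly blood, Notch signalling is known for directing crystal cell fate.

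S2 cells are a line from late embryos with features of macrophage-like blood cells. A group of 3 arrays, S2 control, held RNA of wild type S2 cells, and another group of 3 arrays held RNA of S2 cells induced to make dBigH1, from a line carrying dBigH1::FLAG that was kept in hygromycin B before the experiment. Cells of both groups received 1 mM copper sulphate for 24 h and were grown in the same medium. Whether the dBigH1::FLAG line is 1 clone, and whether replicates were separate cultures, is not stated in the labels, so p-values measure the spread of these arrays alone, and that spread may be technical. No transgene or hygromycin B is named for the S2 control, so a difference between the lines cannot be told apart from an effect of dBigH1.

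Each array gave a log2 signal per probe set after RMA normalisation, and the medians of the 6 arrays lay between 6.32 and 6.35. BigH1 itself read 4.86, 5.42 and 5.30 in S2 control and 13.47, 13.47 and 13.43 in induced cells. The small number of arrays, 3 per group, limits the precision. Of 12 haemocyte and S2 cell markers, all 12 were measured, at mean log2 signals in S2 control from 6.68 (NimC1) to 12.43 (Col4a1). Among them were the GATA factor gene srp at 9.87, the hemolectin gene Hml at 11.47 and the peroxidasin gene Pxn at 12.25. Sr-CI was among the dimmer ones, at 7.65. The cells are a bulk sample, in which fewer cells of a type and less RNA per cell cannot be told apart.

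Among the measured E(spl) genes, E(spl)mdelta-HLH rose and E(spl)m3-HLH, E(spl)mbeta-HLH and E(spl)malpha-BFM fell in induced cells, each by less than 2-fold. E(spl)m7-HLH and E(spl)m5-HLH did not pass the test. "Rose" and "fell" are used for an adjusted p under 0.05 in limma, adjusted over all 18769 tested probe sets, and changes are induced minus S2 control. Of the 6 genes, 1 rose and 3 fell, where 14.1% of all tested probe sets rose and 13.2% fell. The median log2 change of the 6 genes was -0.37 and that of all 11982 genes was -0.01.

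E(spl)mdelta-HLH (probe set 1634011_at), which encodes a bHLH repressor known from the eye disc and neural tissue, was the member that rose. Its log2 signals were 6.53, 6.56 and 6.24 on the S2 control arrays and 7.15, 6.90 and 7.24 on the induced arrays. The lowest induced array stood above the highest S2 control array, so the groups did not overlap. The group means were 6.44 ± 0.176 and 7.10 ± 0.177 (SD, n = 3 each), a 1.57-fold higher signal (log2 change 0.65, SE 0.10, 95% interval 0.42 to 0.89, adjusted p = 0.001304). Of all tested probe sets, 284 (1.51%) had a rise at least this large.

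E(spl)m3-HLH (1623497_at), another bHLH repressor gene, had the largest change of the 6. Its log2 signals were 6.76, 7.22 and 6.80 in S2 control and 6.20, 6.20 and 5.99 in induced cells. All induced arrays were lower than all S2 control arrays, and S2 control replicate 2 stood above the other control arrays. The means were 6.93 ± 0.254 and 6.13 ± 0.123 (SD, n = 3 each), a 1.74-fold lower signal (log2 change -0.80, SE 0.12, 95% interval -1.06 to -0.54, adjusted p = 0.0007087). A fall at least this large was seen for 290 probe sets (1.55%).

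E(spl)mbeta-HLH (1639900_at) is a bHLH repressor gene that is widely transcribed in imaginal tissue. It read 9.36, 9.12 and 9.22 in S2 control and 8.66, 8.68 and 8.58 in induced cells on the log2 scale, again without overlap. The signal fell 1.51-fold, from 9.23 ± 0.124 to 8.64 ± 0.0542 (SD, n = 3 each; log2 change -0.59, SE 0.07, 95% interval -0.75 to -0.44, adjusted p = 0.0001885).

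E(spl)malpha-BFM (1629601_at) encodes a Bearded family protein rather than a repressor of transcription. Its log2 signals were 6.21, 6.11 and 6.01 in S2 control and 5.55, 5.56 and 5.56 in induced cells. The induced arrays lay close together (SD 0.00716) and below all control arrays. The change was -0.55 on the log2 scale (SE 0.06, 95% interval -0.68 to -0.41), a 1.46-fold lower signal with an adjusted p = 0.0001268. Falls as large as those of E(spl)mbeta-HLH and E(spl)malpha-BFM were seen for 2.73% and 3.07% of all tested probe sets.

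E(spl)m7-HLH (1625493_at), a bHLH repressor gene, read 5.39, 5.21 and 5.21 in S2 control and 5.13, 5.10 and 5.02 in induced cells. The groups did not overlap, but they lay close together, and the log2 change of -0.19 (SE 0.06, 95% interval -0.34 to -0.04) missed the threshold with an adjusted p = 0.05644. It passed with arrays centred on ribosomal protein genes (adjusted p = 0.0313) and with array weights (0.0367), within a range of 0.0313 to 0.182 over the alternatives. E(spl)m5-HLH (1639741_at), a further bHLH repressor gene, read 4.78, 4.81 and 4.75 in S2 control and 4.62, 4.78 and 4.73 in induced cells, so the groups overlapped. Its log2 change was -0.07 (SE 0.06, adjusted p = 0.4354), with a 95% interval of -0.20 to 0.06, and it ran from -0.105 to -0.0247 with 1 array left out in turn, nearest to 0 without induced replicate 1. In all, the groups did not overlap for 5 of the 6 genes, against 41.3% of all tested probe sets.

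**Figure D1:**
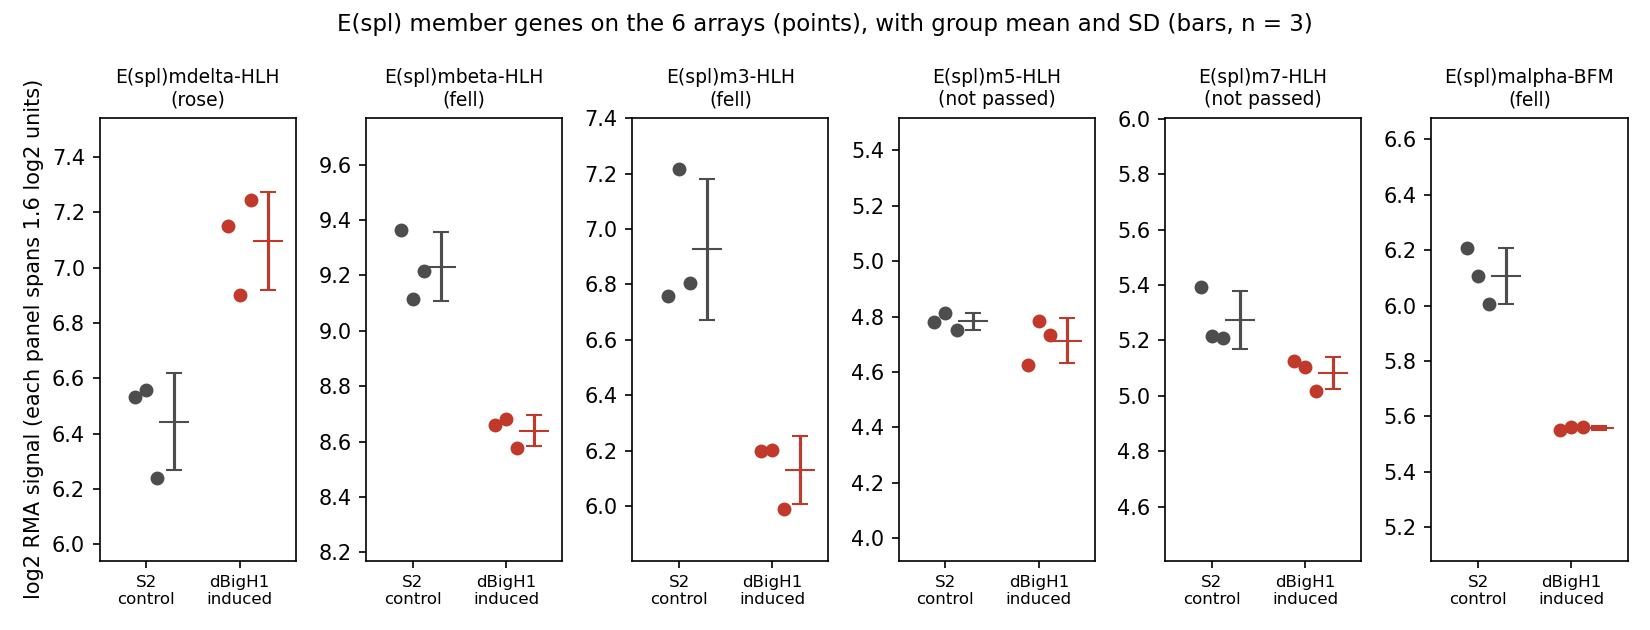
Log2 RMA signal (y axis) of the 6 measured E(spl) genes on each of the 3 S2 control arrays (grey) and 3 dBigH1-induced arrays (red), with the group mean and SD as bars. The y axes start at different levels but span the same range, and they do not start at 0. E(spl)mdelta-HLH is higher on all induced arrays, E(spl)mbeta-HLH, E(spl)m3-HLH and E(spl)malpha-BFM are lower on all of them, and the groups of E(spl)m5-HLH overlap.

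The opposite changes of E(spl)mdelta-HLH and the lower genes were also compared within each array, by subtracting their log2 signals. E(spl)mdelta-HLH minus E(spl)mbeta-HLH moved from -2.79 ± 0.212 to -1.54 ± 0.224 (SD, n = 3 each), a difference of 1.24 (SE 0.18). E(spl)mdelta-HLH minus E(spl)m3-HLH moved from -0.48 to 0.97, a difference of 1.45 (SE 0.21), and E(spl)mdelta-HLH minus E(spl)malpha-BFM moved from 0.34 to 1.54, a difference of 1.20 (SE 0.12). These differences are free of any scaling that moves a whole array, though each level depends on its own probes and only the move between groups can be read. The differences among the 3 genes that fell are given as values, since 3 against 3 arrays cannot give an exact p below 0.1. E(spl)mbeta-HLH minus E(spl)malpha-BFM differed by -0.04 between groups (SE 0.07, two-sided exact permutation p = 0.6, n = 3 each). E(spl)m3-HLH minus E(spl)malpha-BFM differed by -0.25 (SE 0.18, two-sided exact permutation p = 0.3), and E(spl)mbeta-HLH minus E(spl)m3-HLH by 0.20 (SE 0.22, exact p = 0.5). Over all 15 pairs of the 6 genes, which share members, the smallest exact permutation p was 0.1, or 0.136 adjusted over the 15 pairs, so no pair could pass the threshold in this design.

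Positions came from a RefSeq gene table (assembly Release 6), used for order only, since the files name no genome build. All 8 listed E(spl) genes lie in 1 cluster on chromosome arm 3R, N lies on X and Su(H) on 2L. From E(spl)mdelta-HLH to gro, which encodes the corepressor Groucho, the cluster held 13 protein-coding genes, 11 of them measured. E(spl)mdelta-HLH, at one end of the cluster, was the gene that rose. The genes that fell held places 3 (E(spl)mbeta-HLH), 4 (E(spl)malpha-BFM) and 7 (E(spl)m3-HLH), and between the last pair lay Kaz-m1 and E(spl)m2-BFM, which did not pass. Over the whole cluster 1 gene rose, 3 fell and 7 did not pass, where 14.5% of all genes rose and 16.0% fell.

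Of the measured genes of the cluster that are not members, 0 passed in limma and 0 had an unadjusted p under 0.05. Kaz-m1, which encodes a Kazal-type protease inhibitor domain protein, stood at 4.13 in S2 control and 4.21 in induced cells (log2 change 0.08, SE 0.06). The Bearded family genes E(spl)m2-BFM, E(spl)m4-BFM and E(spl)m6-BFM had log2 changes of -0.04, 0.04 and 0.02 (SE 0.06, 0.08 and 0.07), and the groups overlapped for each. The gro probe set read 9.96, 10.14 and 10.06 in S2 control and 10.09, 10.17 and 10.07 in induced cells, with a log2 change of 0.06 (SE 0.06, adjusted p = 0.5416). Of the 5 nearest measured genes on each side of the cluster, a comparison chosen after the values of the cluster were seen, 0 of 5 passed in limma beside E(spl)mdelta-HLH, and boss alone had an unadjusted p under 0.05. Their log2 changes were 0.17 for CG43116, the direct neighbour, 0.09 for the neurofibromin gene Nf1, -0.10 for fid, -0.13 for boss and -0.06 for CG14540. Beyond gro, 1 of 5 passed, the GINS subunit gene Sld5, which rose by 0.28 (SE 0.07, adjusted p = 0.0157). Of all genes 14.5% rose and 16.0% fell, so 5 genes on a side are too few to set the flanks apart from the array.

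**Figure D2:**
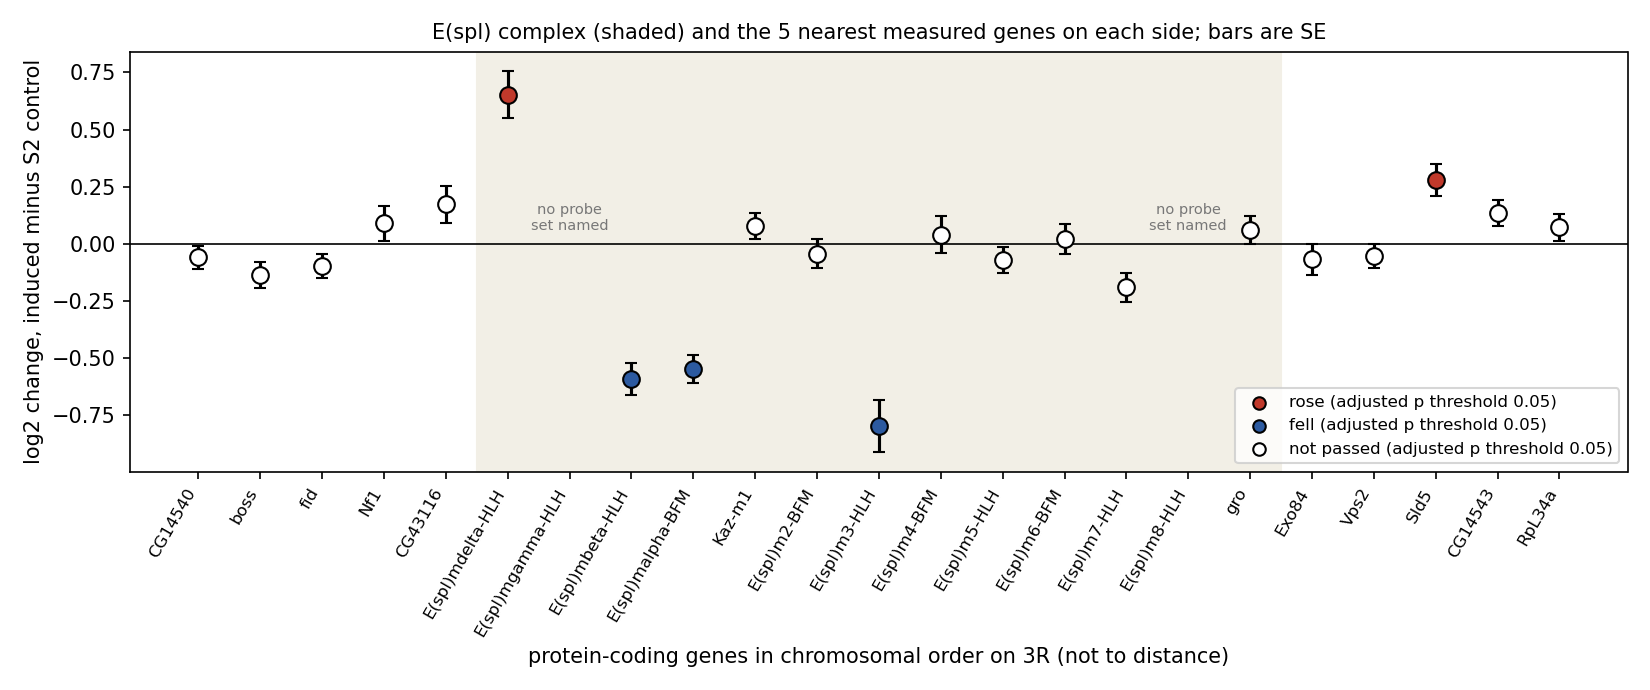
Log2 change, induced minus S2 control (y axis, bars are SE), of the protein-coding genes of the E(spl) complex up to gro (shaded) and of the 5 nearest measured genes on each side, in chromosomal order (x axis, not to distance). Red points rose, blue points fell and open points did not pass. E(spl)mdelta-HLH stands at 0.65. Past E(spl)mgamma-HLH, which has no probe set, come E(spl)mbeta-HLH at -0.59 and E(spl)malpha-BFM at -0.55. The genes outside the cluster lie between -0.13 and 0.28.

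How dim these probe sets were bears on how large a change could be read. As a rough gauge, the 125 probe sets of odorant and gustatory receptor genes, which are mostly silent outside sensory neurons, had a median log2 signal of 4.15 to 4.28 per array and a 95th percentile of 7.01 to 7.29. E(spl)mbeta-HLH stood above that percentile on all 6 arrays. E(spl)mdelta-HLH did so on 2 of the 6 arrays, and E(spl)m3-HLH, E(spl)malpha-BFM, E(spl)m7-HLH and E(spl)m5-HLH on 0 of 6. The brightest receptor probe set read 9.17 to 9.67 per array, and no member stood above it on any array. Probes differ in affinity, so this places no gene above another, and it does not show that a gene is silent. RMA compresses differences of dim probe sets, so the folds of the dim members may understate the change of their RNA. Of the 125 receptor probe sets themselves, 17 rose and 13 fell, with a median log2 change of 0.01. Of all tested probe sets 14.1% rose and 13.2% fell, so the receptor probe sets were called at a rate near that of the array.

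**Figure D3:**
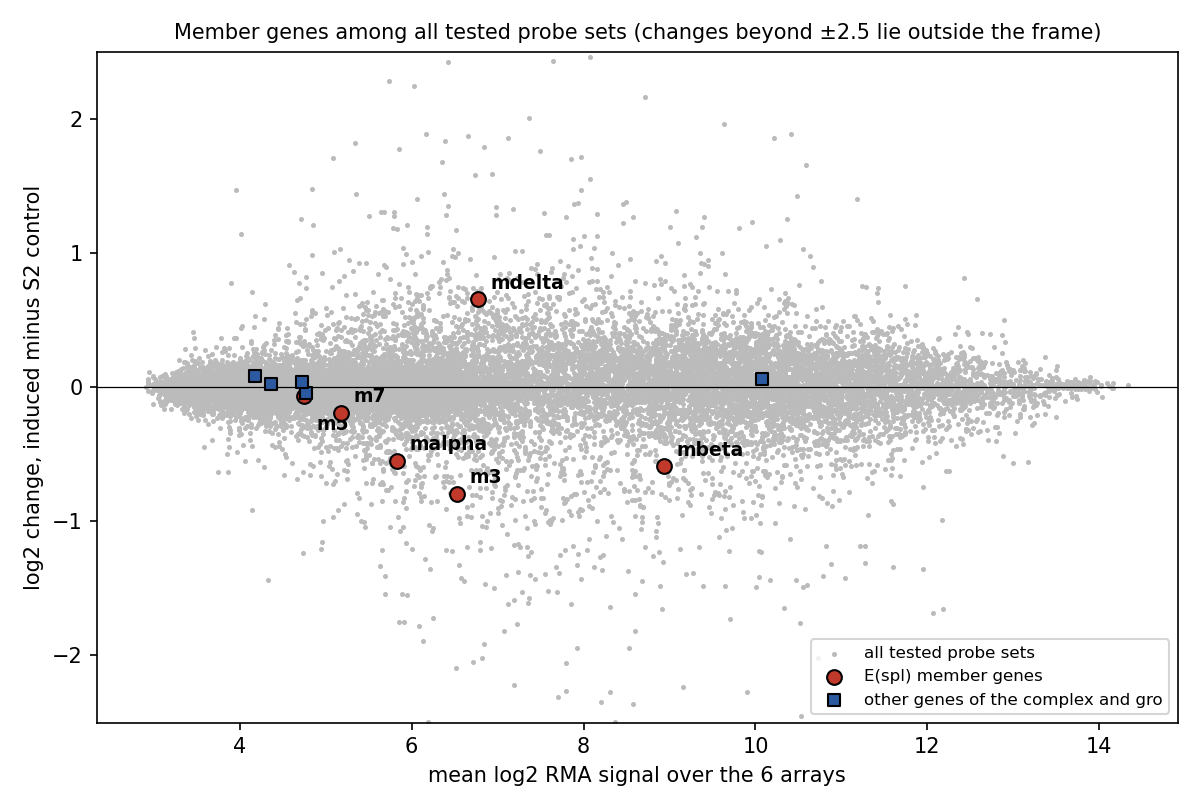
Log2 change, induced minus S2 control (y axis), against the mean log2 RMA signal over the 6 arrays (x axis) for the 18769 tested probe sets (grey, those beyond the frame not shown), the 6 measured member genes (red circles) and the other measured genes of the E(spl) complex with gro (blue squares). E(spl)m5-HLH and E(spl)m7-HLH lie near 0 beside most other genes of the complex. E(spl)mdelta-HLH lies above 0, and E(spl)mbeta-HLH, E(spl)m3-HLH and E(spl)malpha-BFM lie below it.

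The machinery that makes and reads the Notch signal was described with 8 lists of 86 other genes, of which 74 were measured. These gave 9 genes that rose, 10 that fell and 55 that did not pass, with a median log2 change of -0.02. Of all 11982 genes 14.5% rose and 16.0% fell, so the pooled counts lie near or below the background, while single lists lie on either side of it. Of the 74 genes, 31 stood above the 95th percentile of the receptor probe sets on no array. For such dim genes, not passing does not show that their RNA was unchanged. A gene with several probe sets is given by its brightest.

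Of 3 listed ligand genes, 1 was measured. This was wry, which encodes a protein with EGF repeats, at a log2 signal of 3.48 in S2 control and 3.53 in induced cells (log2 change 0.05, SE 0.06, adjusted p = 0.6068), below the median of the receptor probe sets. Of 11 measured genes for Notch glycosylation and cleavage, 3 rose, 1 fell and 7 did not pass (median 0.11), beside 14.5% of all genes that rose. In a fit of the brighter probe sets alone, those above the median signal, 2497 of 9384 rose. The count is therefore not read as a trait of the list. Psn encodes presenilin, the catalytic subunit of the protease complex that frees the Notch intracellular part. It read 10.51, 10.25 and 10.49 in S2 control and 10.02, 10.13 and 10.16 in induced cells, and fell by 0.31 (SE 0.08, adjusted p = 0.01352). The fucosyltransferase gene O-fut1 rose by 0.24 (SE 0.06) and the xylosyltransferase gene shams by 0.23 (SE 0.06), and the ADAM protease gene Tace by 0.34 (SE 0.08), from a log2 signal of 4.48 in S2 control. The fringe glycosyltransferase gene fng stood at 0.17 (SE 0.06, adjusted p = 0.0660) and the ADAM protease gene kuz at -0.03 (SE 0.05), and neither passed. Psn missed the threshold without induced replicate 1 (adjusted p = 0.0551) and shams without induced replicate 2 (0.0564). O-fut1 missed it without S2 control replicate 2 (0.0643), induced replicate 2 (0.0858) or induced replicate 3 (0.0716). Over all alternatives the adjusted p was 0.00113 to 0.0551 for Psn, 0.00430 to 0.0564 for shams and 0.00214 to 0.0858 for O-fut1.

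Endocytosis and ubiquitin ligases, which move ligand and receptor through the cell, held the 2 largest changes among the 74 measured genes, both falls. Of 17 measured genes, 3 rose, 7 fell and 7 did not pass (median -0.13), a larger share fallen than the 16.0% of all genes. In the fit of the brighter probe sets alone, 2164 of 9384 fell. Nedd4, a HECT ubiquitin ligase gene known to promote turnover of Notch, read 9.12, 9.34 and 9.12 in S2 control and 8.21, 8.12 and 8.07 in induced cells, a 2.08-fold lower signal (log2 change -1.06, SE 0.07, adjusted p = 6.063e-06). The other probe set of Nedd4 also fell, with a log2 change of -0.39 (SE 0.06). The signal of numb, whose protein inhibits Notch in 1 of a pair of daughter cells, read 6.39, 6.53 and 6.31 in S2 control and 5.73, 5.90 and 5.73 in induced cells (log2 change -0.62, SE 0.07, adjusted p = 0.0001948). No induced array of either gene reached a control array.

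The other ubiquitin ligase genes went both ways. mib2 had a log2 change of -0.38 (SE 0.05), neur, the target of Bearded proteins, -0.32 (SE 0.07), and Su(dx), a relative of Nedd4, -0.21 (SE 0.05), and all these fell. dx, which encodes Deltex, a binding partner of Notch, read 9.37, 9.49 and 9.34 in S2 control and 9.79, 9.82 and 9.79 in induced cells and rose by 0.40 (SE 0.06, adjusted p = 0.0005885). The trafficking genes l(2)gd1 and lqf, the latter encoding epsin, fell with log2 changes of -0.30 (SE 0.05) and -0.27 (SE 0.05), while spdo, which encodes a transmembrane partner of Notch, rose by 0.26 (SE 0.06). The H2B ubiquitin ligase gene Bre1 rose by 0.18 (SE 0.05, adjusted p = 0.02908). Su(dx) missed the threshold without induced replicate 1 (adjusted p = 0.0512) or 3 (0.0562), within a range of 0.00114 to 0.0562. Bre1 missed it with any array but S2 control replicate 2 left out, and its adjusted p was 0.00588 to 0.0942 over the alternatives.

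Among 13 cofactors of Su(H), 2 rose, 0 fell and 11 did not pass in limma (median 0.11), against 14.5% of all genes that rose. H, which encodes the corepressor adaptor Hairless, had a log2 change of 0.12 (SE 0.06, adjusted p = 0.1997), although its other probe set rose by 0.28 (SE 0.07, adjusted p = 0.0161) and the mean of both passed (0.0384). H also passed without S2 control replicate 2 (adjusted p = 0.0493), and its range was 0.0384 to 0.484. The coactivator gene mam had log2 changes of -0.04 (SE 0.05) and 0.12 (SE 0.10) on its probe sets and did not pass. The acetyltransferase gene nej, fly CBP, rose by 0.21 (SE 0.05, adjusted p = 0.0154) and the Mediator kinase gene Cdk8 by 0.20 (SE 0.06, adjusted p = 0.03595). The other probe set of nej, at 0.12 (SE 0.05, adjusted p = 0.140), did not pass. nej missed the threshold without induced replicate 1 (0.0602, range 0.000214 to 0.0602). Cdk8 missed it without S2 control replicate 2 or any induced array left out (0.0727 to 0.0976, range 0.0159 to 0.0976). The BTB factor gene lola did not pass on its brightest probe set (0.11), whereas 10 of its 15 probe sets rose, by up to 0.71.

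Genes that lie downstream of Notch or of the E(spl) repressors in other tissues are set beside all genes, of which 8325 of 11982 did not pass. Of 8 measured genes in the rest of the E(spl) and Bearded complexes, 0 passed in limma and 0 had an unadjusted p under 0.05. Of 4 other bHLH-Orange genes, 0 passed on the brightest probe set, among them dpn at 3.36 and Hey at 4.14 in S2 control, and 0 had an unadjusted p under 0.05 there, though another probe set of cwo rose by 0.33 (SE 0.07). Of 9 genes known as Notch targets elsewhere, 1 rose, 2 fell and 6 did not pass. The homeobox gene ct read 9.11, 9.14 and 9.07 in S2 control and 9.51, 9.39 and 9.51 in induced cells and rose by 0.36 (SE 0.05, adjusted p = 0.0009416). Another probe set of ct rose by 0.55 (SE 0.06), and a dim one, at 4.02 in S2 control, stood at 0.001 (SE 0.10) and did not pass. The wing selector gene vg fell (log2 change -0.31, SE 0.07, adjusted p = 0.009621), but its other probe set, at -0.58 (SE 0.25), did not pass, nor did the mean of both (-0.44, adjusted p = 0.0605, range 0.00459 to 0.0605). edl, which encodes a small inhibitor of ETS factors, had a log2 change of -0.35 (SE 0.05, adjusted p = 0.0007066). Of 11 proneural genes and partners, many of which E(spl) repressors are known to hold down, 0 passed in limma and ato alone had an unadjusted p under 0.05, with a log2 change of -0.16 (SE 0.05, adjusted p = 0.0561).

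**Figure D4:**
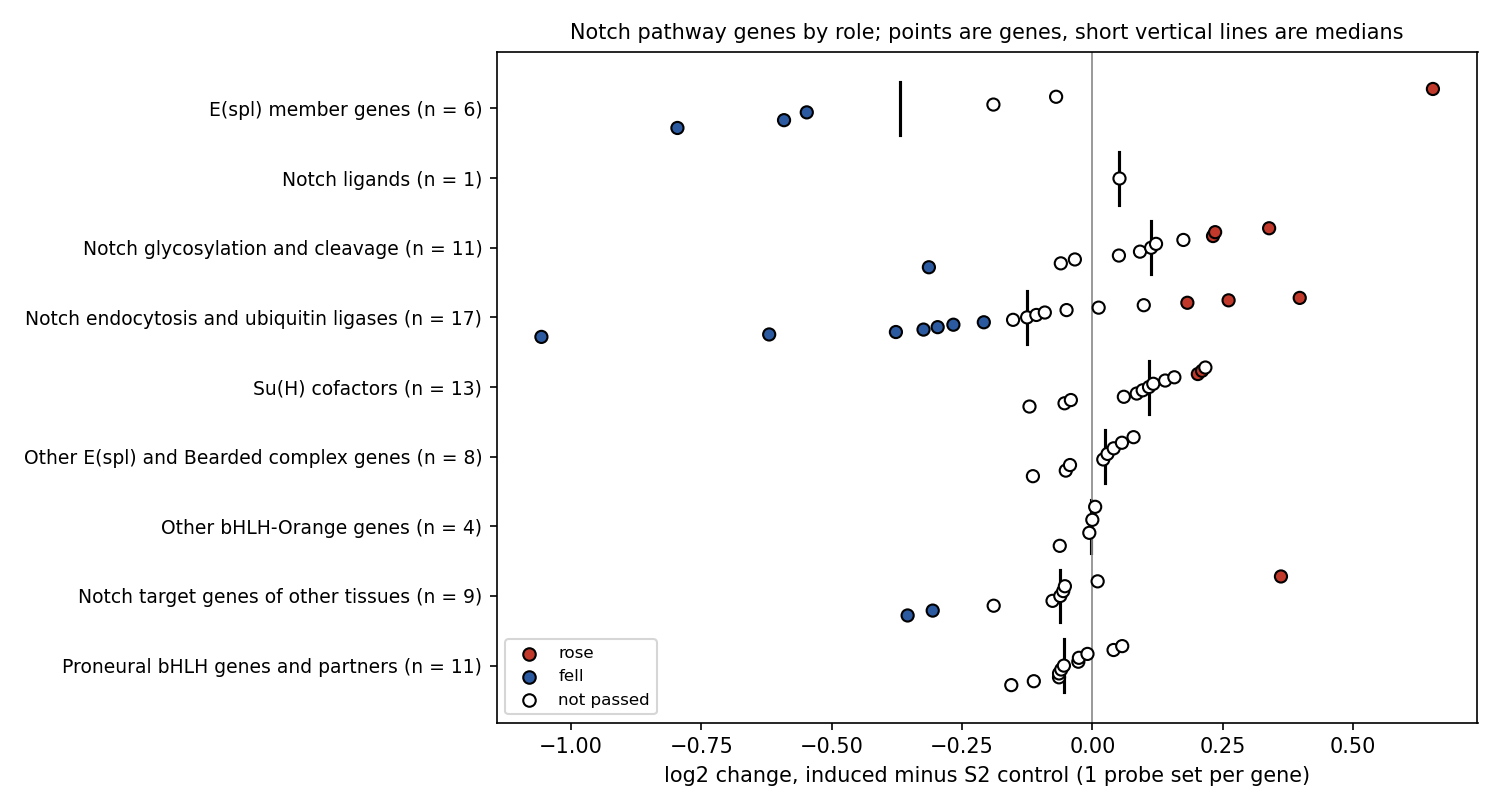
Log2 change, induced minus S2 control (x axis), of the 6 measured E(spl) genes and of the measured genes of 8 Notch pathway lists (y axis), 1 point per gene and a short line at each list's median. Red points rose, blue points fell and open points did not pass. The median of the E(spl) genes is -0.37, those of the other lists lie between -0.13 and 0.11, and Nedd4 at -1.06 is the lowest point.

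Blood cell marker lists are given beside the E(spl) genes, against 14.5% of all genes that rose and 16.0% that fell. Of 5 crystal cell markers, 0 rose, 1 (Naam, which encodes nicotinamidase) fell and 4 did not pass. The lineage's defining gene lz was at 3.59 in S2 control, below the median of the receptor probe sets, and the log2 of the list's summed signal ran from 10.91 to 11.03 on the S2 control arrays and from 10.42 to 10.52 on the induced arrays. Naam, at a mean log2 signal of 10.77 in S2 control and 10.18 in induced cells, made up most of that sum, and lz, PPO1, PPO2 and peb had log2 changes of -0.08, -0.11, 0.04 and -0.12. Of 5 lamellocyte markers 4 fell, with log2 changes of -1.75 (SE 0.12) for ItgaPS4, -1.19 (SE 0.06) for PPO3 and -0.23 each for cher and mys. The log2 of their list's summed signal ran from 12.78 to 12.84 in S2 control and from 12.48 to 12.56 in induced cells. Of 12 haemocyte markers 6 rose and 3 fell, the falls being Sr-CI (-1.09), He (-0.71) and NimC1 (-0.35). The log2 summed signal of that list ran from 14.48 to 14.53 and from 14.77 to 14.80. Its brightest genes, Col4a1 and Pxn, rose by 0.40 and 0.65 and weigh most in the sum. The part of these marker changes in the changes of the E(spl) genes was not tested. The 5′ minus 3′ signal of control probe sets differed between groups by 0.03 for actin, -0.08 for GAPDH and -0.08 for eIF-4a.

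The genes whose pattern over the 6 arrays was most like that of E(spl)m3-HLH, the member with the largest change, were sought among 6757 genes with a name of their own. The measure was the Euclidean distance between the 6 log2 signals, each gene centred on its own mean. The nearest were P5CDh1, which encodes an enzyme of proline breakdown, at a distance of 0.225, Pvf3, a PDGF- and VEGF-like ligand gene, at 0.236, and EcR, the ecdysone receptor gene, at 0.245. Their log2 changes were -0.81 (SE 0.09), -0.77 (SE 0.07) and -0.77 (SE 0.09). With 2 groups of 3 arrays, the distance chiefly picks genes with a fall of like size.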

How the data were processed

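The authors deposited 1 table of log2 signals per probe set, made with RMA per the submitters' processing notes. RMA takes off background, sets the arrays to 1 distribution and combines the probes of a set. The sources used here name neither its version nor a filter. Per the labels' protocols, amplification and biotin labelling started from 25 ng of total RNA. Of 18952 probe sets, 183 are platform controls and the remaining 18769 entered the fit. GEO's platform annotation ties 13647 of them to 1 gene, 402 to several and 4720 to no gene, and 13544 symbols were updated through the gene identifier.

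The whole table was fitted under R 4.3.3 by the limma package, version 3.58.1 (eBayes after lmFit, two-sided, with group and no other term) and p-values were adjusted by Benjamini-Hochberg across the 18769 probe sets. Residual degrees of freedom were 4, and moderation added 5.50 around a prior SD of 0.0754. The fit was also tried on simulated arrays with 200 probe sets changed, which cannot show what the spread between these arrays holds. Differences between pairs of members within each array were compared between the groups with exact permutation tests in SciPy 1.17.1.

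The members and lists were chosen with earlier results of these data known. Every member probe set is reported. Of the pathway lists, genes past the threshold may be named, and H, mam, gro, ligand and E(spl) complex genes always. Other genes that did not pass, and other probe sets of a named gene, were chosen after their values were seen. Alternatives were the brighter probe sets alone, 3 further scalings, trended robust moderation, array weights, a replicate block, leaving out each array, averaging a gene's probe sets and stricter thresholds.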

Additional observations from a re-analysis of the deposited data

How the results depend on the processing

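The rise of E(spl)mdelta-HLH and the falls of E(spl)mbeta-HLH, E(spl)m3-HLH and E(spl)malpha-BFM kept direction and call in every fit at an adjusted p under 0.05 or 0.01 that tested them. Among the brighter probe sets alone, 1 member rose and 2 fell, beside 2497 and 2164 of the 9384 probe sets. E(spl)malpha-BFM, E(spl)m5-HLH and E(spl)m7-HLH were not tested there. With array weights or ribosomal centring 4 members fell, E(spl)m7-HLH being added. Over all probe sets, 2736 rose and 2607 fell with array weights. With ribosomal centring 2304 rose and 2846 fell, against 2643 and 2480 in the main fit. With 1 array left out in turn, the log2 changes were 0.55 to 0.75, -0.65 to -0.53, -0.88 to -0.65 and -0.60 to -0.50, and for E(spl)m7-HLH -0.22 to -0.13 without passing, with 1 member higher and 3 lower each time. Over all probe sets 2030 to 2387 rose and 1941 to 2329 fell in these fits. Deviations from the group mean had correlations of 0.0384, -0.0983 and 0.0135 between same-numbered arrays, and of -0.143 to 0.144 between the others. Such values cannot show whether same-numbered arrays were paired in the experiment, so fits without and with the replicate number are given. With the replicate number as a block, 1 member rose, 3 fell, and 7 pathway genes rose and 10 fell, beside 2399 and 2242 of all probe sets. Bre1 (adjusted p = 0.0512) and Cdk8 (0.0546) then missed the threshold. Both also missed it with arrays centred on ribosomal protein genes (0.0575 and 0.0547), which moved induced minus control by -0.02. At 2-fold or more, 0 members rose and 0 fell, 0 pathway genes rose and 1 fell, and 98 probe sets rose and 161 fell. At 0.01 the counts were 1656 probe sets up and 1613 down, and 4 pathway genes up. The pathway genes lower at 0.01 were neur, mib2, Nedd4, numb, lqf, l(2)gd1, vg and edl. Trended robust moderation gave 14 higher and 12 lower pathway genes, beside 3016 higher and 2754 lower of the 18769 probe sets. Among genes that did not pass, the sign of E(spl)m6-BFM turned on ribosomal centring (-0.0034) and with array weights (-0.0094), and mam stood at 0.0413 over the mean of its probe sets. With 1 array left out, E(spl)m2-BFM ranged from -0.0854 to 0.0166, E(spl)m4-BFM from -0.0422 to 0.0975 and E(spl)m6-BFM from -0.0501 to 0.0588. The cause of these shifts was not tested. Low signal over background limits what the dim members can show.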
